A study of Mus musculus with 10 samples.

Results

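IGKV11-125 is a variable (V) gene segment of the mouse immunoglobulin kappa light chain locus (Igk), and its joins to the J segments were described in small pre-B cells of 2 genotypes. Its members were all lines of the deposited repertoire table whose V call, with the allele number removed, was IGKV11-125. They came to 625 of 49079 lines and to 2075 of 161780 counts, or 1.28% of all Igk counts, and every one carried the same allele name. A clonotype is a distinct combination of V, J and CDR3 nucleotide sequence, the CDR3 being the stretch that spans the V-J joint. IGKV11-125 held 323 of 23998 distinct clonotypes in the table. The segment itself was selected on its readout, since its joins to J5 were higher in rsCBE than in WT. Every difference between the genotypes below is therefore given as a description without a test.

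The study sequenced Igk transcripts of bone marrow small pre-B cells from C57Bl6 mice 6 to 12 weeks old. There were 5 samples labelled WT and 5 labelled rsCBE, which the design text writes with a delta in front, and the labels do not spell the name out. Neither zygosity nor whether animals were pooled is stated, and a further mutant named in the design text was not analysed here. Cells were purified by flow cytometry and amplicon libraries were read as paired ends. The table holds nothing but Igk rearrangements, so the sorted cell type could not be checked against marker genes. The labels do not say that the samples of a group came from separate animals, so a p-value here measures the spread between these samples. Total counts ran from 3109 to 24083 per sample. Replicates 1 and 2 of each genotype were deposited as 1 library each (called batch 1), and replicates 3 to 5 as 2 parts each, which were added (batch 2).

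A kappa light chain gene is made when the RAG recombinase joins 1 of many V segments to 1 of a short row of J segments upstream of the constant segment. The J segment nearest the V segments is J1, and J5 is the last of the row. A cell whose first join is out of frame, or whose receptor binds self, can join a V segment farther out to a J segment farther down, which removes or displaces the earlier join. J3 of the mouse is regarded as non-functional.

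In the GENCODE M21 annotation of GRCm38, IGKV11-125 (ENSMUSG00000095737.5) lies at chr6:67913573-67914052 on the plus strand and is annotated as a functional V gene. Its longer annotated transcript has 2 coding exons, of 55 bp at 67913573-67913627 and of 298 bp at 67913755-67914052, and the joint forms at the end of the latter. The segment lies 2808.5 kb from J1, in the far part of the V array. It has the same strand as the J segments, the orientation in which a join deletes the DNA between. J1 lies at 70722562-70722599, J2 at 70722916-70722958, J4 at 70723548-70723585 and J5 at 70723886-70723927 of the same chromosome and strand.

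The germline ends that meet in these joins are shown because every recurrent junction below is built from them. They are the GENCODE M21 transcript sequences, 5′ to 3′, and capitals mark the bases that fall in the CDR3 as the deposited table delimits it.
IGKV11-125, last bases: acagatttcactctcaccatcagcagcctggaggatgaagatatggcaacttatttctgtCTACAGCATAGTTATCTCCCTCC
Igkj1: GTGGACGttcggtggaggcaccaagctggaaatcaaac
Igkj2: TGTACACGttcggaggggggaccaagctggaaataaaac
Igkj4: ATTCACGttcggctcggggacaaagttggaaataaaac
Igkj5: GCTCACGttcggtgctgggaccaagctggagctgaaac
The germline V thus supplies up to 23 bases of the CDR3. J1, J4 and J5 supply up to 7 each, and J2 up to 8.

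The recurrent junctions of IGKV11-125 were few and were made almost wholly of germline bases. The 10 junctions named by a fixed rule, the most widely shared 6 in frame and 4 out of frame, held 58.6% of its counts, and the 6 in frame held 51.0%. They are printed in full because together they are the larger part of what was read from this segment. Lower case marks V and inserted bases, and capitals mark bases given to J.
J5, in frame: ctacagcatagttatctcccGCTCACG
J2, in frame: ctacagcatagttatctcccGTACACG
J5, in frame: ctacagcatagttatctccctcTCACG
J1, in frame: ctacagcatagttatctcccGTGGACG
J5, in frame: ctacagcatagttatctccctccCACG
J4, in frame: ctacagcatagttatctcccATTCACG
J1, out of frame: ctacagcatagttatctccctGGACG
J5, out of frame: ctacagcatagttatctccctcACG
J5, out of frame: ctacagcatagttatctccctccACG
J5, out of frame: ctacagcatagttatctcccgcGCTCACG
The last of these holds 2 bases between V and J. The other 9 hold none. Where a base could come from either germline end it was given to V, which touched 17.0% of counts.

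The first junction listed, 20 V bases followed by all 7 CDR3 bases of J5, was found in all 10 samples with 411 counts. WT replicates 1 to 5 held 26, 39, 37, 2 and 7 of them, and rsCBE replicates held 95, 110, 27, 33 and 35. Its share of all Igk counts was 0.141% ± 0.0845 over the WT samples and 0.309% ± 0.128 over the rsCBE samples (SD, n = 5 each), and the groups overlapped. The same trimmed V end joined to J2 was found in 10 samples with 213 counts, to J1 in 9 samples with 186, and to J4 in 8 samples with 116. The J2 junction had a mean share of 0.115% ± 0.0731 over the WT samples and 0.124% ± 0.0490 over the rsCBE samples (SD, n = 5 each). The J1 junction had 0.0655% ± 0.0831 and 0.137% ± 0.108, and the J4 junction 0.0470% ± 0.0652 and 0.0687% ± 0.0256 (SD, n = 5 each). The remaining in-frame J5 junctions had 84 counts in 10 samples and 49 counts in 9 samples. The share of ctacagcatagttatctccctcTCACG was 0.0710% ± 0.0707 in WT and 0.0534% ± 0.0203 in rsCBE, and that of ctacagcatagttatctccctccCACG was 0.0134% ± 0.0103 and 0.0420% ± 0.0112 (SD, n = 5 each). Among the out-of-frame junctions, ctacagcatagttatctccctcACG was the most abundant. It had 10, 5, 5, 0 and 0 counts in WT replicates 1 to 5 and 17, 26, 8, 5 and 5 in rsCBE. None of the 10 named junctions was listed with another V segment.

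Sharing between samples followed abundance. Of the 323 clonotypes, 250 (77.4%) were found in 1 sample, and together these held 13.9% of the counts. The 3 clonotypes found in all 10 samples held 708 counts, or 34.1%. The 55 clonotypes found in both genotypes made up 31.8% of the WT clonotypes and 26.8% of the rsCBE clonotypes, and they held 81.7% of the counts. WT alone had 118 clonotypes and rsCBE alone 150.

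**Figure D1:**
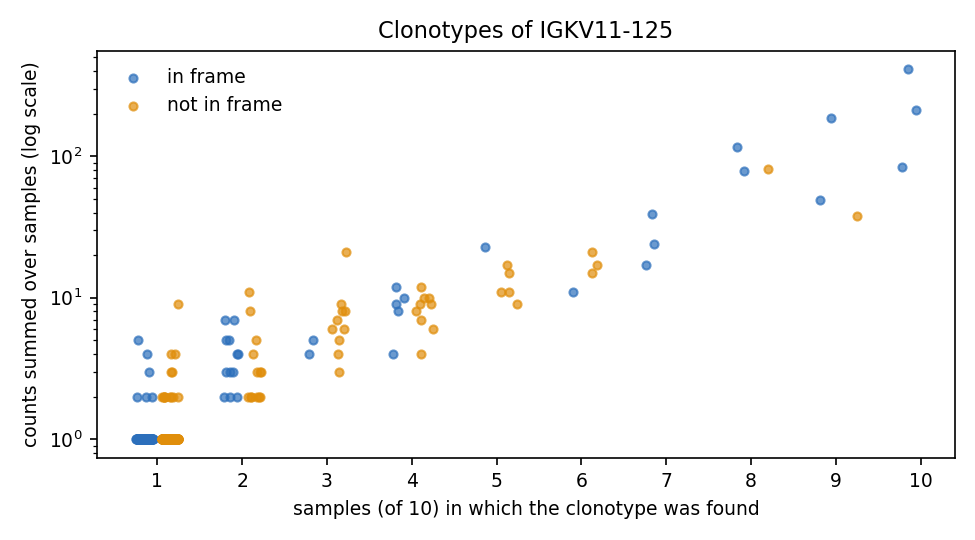
Each point is 1 clonotype of IGKV11-125, placed by the number of samples in which it was found (x axis, of 10) and its counts summed over samples (y axis, log scale), with in-frame junctions in blue and all others in orange. The 250 clonotypes of 1 sample lie at the lower left and the 3 found in 10 samples, all in frame, at the upper right.

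Pooled over samples, the V end was most often trimmed by the same number of bases, more so in frame. Among the 1952 counts whose first 12 CDR3 bases matched the germline V, 55.7% lacked exactly 3 V bases, 16.2% lacked 1 and 11.4% lacked none. The J end was complete in 51.7% of these counts and lacked 1 base in 28.1%. No base stood between V and J in 87.2% of these counts, and in 62.1% with each clonotype of a sample counted once. The loss of 3 V bases was seen with each J segment, in 44.2% of counts with J1, 73.3% with J2, 62.3% with J4 and 52.9% with J5. It was seen in 67.9% of in-frame counts and 22.5% of out-of-frame counts. Over all its counts, WT replicate 4 lacked exactly 3 V bases in 17.2%, against 46.2 to 59.6% in the other samples. Junctions in frame lacked an inserted base in 93.1% of counts, against 71.4% out of frame. With each clonotype of a sample counted once the values were close, 63.2 and 61.1%. Junctions in and out of frame differ in length largely by construction, since frame requires a length that is a multiple of 3.

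**Figure D2:**
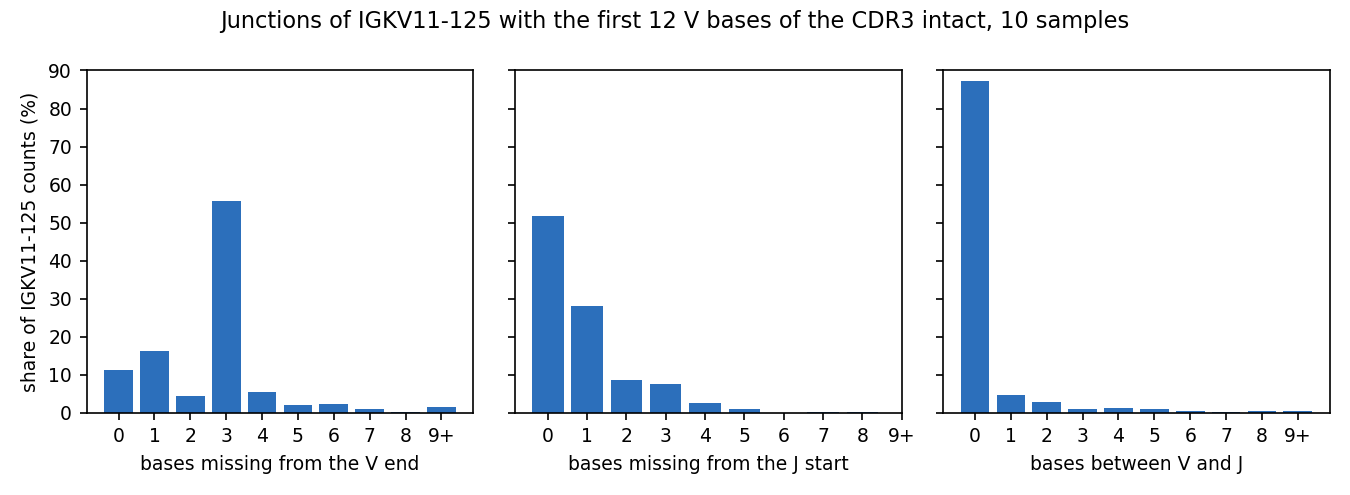
Bars give the share of the 1952 IGKV11-125 counts with an intact V start (y axis, %, pooled over 10 samples) by the number of bases missing from the V end, missing from the J start and standing between V and J (x axes, with 9 or more in the last bar). The tallest bar of the V panel is at 3 missing bases (55.7%), and the bar at 0 inserted bases reaches 87.2%.

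The share of IGKV11-125 in the repertoire was higher on average in rsCBE, with overlapping groups. In WT replicates 1 to 5 it was 1.12, 1.51, 0.738, 0.933 and 0.469% of all Igk counts, from 255, 323, 102, 29 and 43 counts. In rsCBE it was 1.58, 1.80, 1.09, 1.18 and 1.34%, from 381, 419, 199, 168 and 156 counts. WT replicate 5 was lowest and rsCBE replicate 2 highest, and WT replicates 1 and 2 lay above the lowest rsCBE sample. Between samples of the same replicate number, a pairing that the labels do not give, the share was higher in rsCBE in 5 of 5. For the joins without J5 it was higher in 2 of 5. The means were 0.954% ± 0.393 (SD, n = 5) and 1.40% ± 0.292 (SD, n = 5), a ratio of 1.46. For the smallest sample, WT replicate 4, the 95% Wilson interval was 0.650 to 1.34%. Counts are not known to be independent molecules, so intervals of single samples cover counting error only. In these bulk samples more cells with a join and more transcript per cell cannot be told apart.

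The fitted log2 fold change of the IGKV11-125 share in edgeR was 0.54 ± 0.28 (SE), the seventh highest of 98 V segments tested, whose median was −0.05. When each clonotype was counted once the value was 0.035. No V segment passed an adjusted p of 0.05 between the genotypes in edgeR's quasi-likelihood test (0 of 98, 0.00%), with 7 at an unadjusted p under 0.05. DESeq2 called 0 of 114 as well, with 8 unadjusted. With batch as a term edgeR called 2 of 98 (2.04%), and with the replicate number as a block 1 of 98 (1.02%). These were IGKV1-132 in both fits and IGKV8-19 with the batch term, named here after their values were seen, and IGKV11-125 was in neither. Groups without overlap, every rsCBE sample above every WT sample, were seen for 3 of 98 V segments (3.06%), and IGKV11-125 was not one of them.

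The choice of the segment rested on its J5 joins, which were higher in rsCBE in both batches. IGKV11-125 joined to J5 made up 0.312, 0.407, 0.398, 0.354 and 0.273% of all counts in WT replicates 1 to 5. In rsCBE it made up 0.847, 1.01, 0.553, 0.611 and 0.583%. All 5 rsCBE samples lay above all 5 WT samples. The means were 0.349% ± 0.0569 (SD, n = 5) and 0.722% ± 0.200 (SD, n = 5), a ratio of 2.07. Within batch 1 the ratio was 2.59, and within batch 2 it was 1.71.

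Such a separation was seen for 7 of 270 V-J pairs tested (2.59%), and all 7 were J5 pairs, which is 7 of 83 (8.43%). The J5 pair of IGKV11-125 had a log2 fold change of 1.05 ± 0.29 (SE). J5 pairs as a whole leaned the same way, with 71 of 83 above 0 and a median of 0.47, and 6 of them lay above IGKV11-125. With each clonotype counted once, its value was 0.37. The edgeR fit called 0 of 270 pairs (0.00%, with 25 at an unadjusted p under 0.05), and DESeq2 called 2 of 470 (0.426%, with 45 unadjusted). With batch as a term edgeR called 7 of 270 (2.59%). The J5 pair of IGKV11-125 was among the latter 2 sets of calls, from which nothing is read because the segment was chosen on this contrast.

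**Figure D3:**
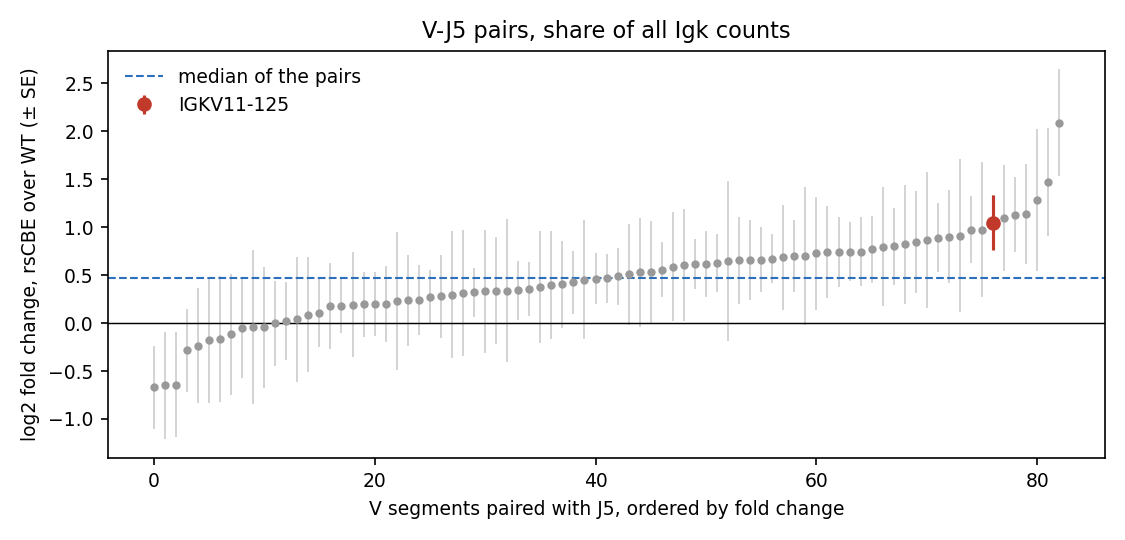
Log2 fold change of the share of all Igk counts, rsCBE over WT (y axis, ± SE from edgeR), for the 83 V segments tested with J5, in order of size (x axis). IGKV11-125 (red, 1.05) lies above the dashed median of 0.47 and below 6 other segments.

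Joins to the other J segments differed in direction between the batches. Without J5, IGKV11-125 made up 0.808, 1.10, 0.340, 0.579 and 0.196% of all counts in WT and 0.735, 0.785, 0.537, 0.569 and 0.755% in rsCBE. These gave 0.605% ± 0.363 (SD, n = 5) against 0.676% ± 0.115 (SD, n = 5), with the rsCBE values inside the WT range. The ratio of rsCBE to WT was 0.795 in batch 1 and 1.67 in batch 2, where the means were 0.372 and 0.620% and the ratio was close to that of the J5 joins. The log2 fold changes were 0.25 ± 0.53 (SE) for the J1 pair, −0.19 ± 0.45 for J2 and 0.35 ± 0.68 for J4. With 1 sample left out, J1 ran from −0.04 without WT replicate 5 to 0.53 without WT replicate 2, J2 from −0.37 without WT replicate 4 to 0.08 without WT replicate 2, and J4 from 0.07 without WT replicate 5 to 1.09 without WT replicate 2. The medians over all tested pairs were −0.37 for J1 (60 pairs), −0.31 for J2 (69 pairs) and −0.07 for J4 (58 pairs). J3 was listed with 0 of 2075 counts. A count of 0 allows up to 3 counts, here a share of 0.145%, and the other V segments used J3 for 0.0110 to 0.260% of their joins.

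**Figure D4:**
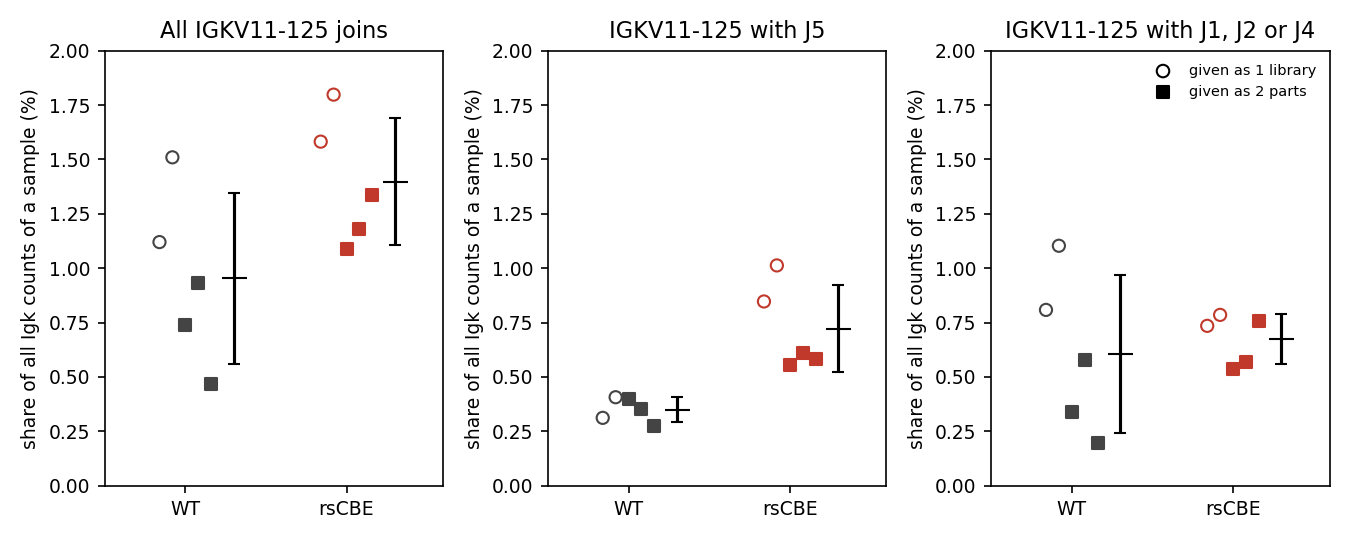
Share of all Igk counts (y axis, %) for all joins of IGKV11-125, its J5 joins and its J1, J2 and J4 joins, with 1 point per sample (open circles, samples given as 1 library; filled squares, samples given as 2 parts) and the mean ± SD beside each group of 5. WT and rsCBE separate in the J5 panel, where the highest WT sample is at 0.407% and the lowest rsCBE sample at 0.553%.

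Within the joins of IGKV11-125, J5 was the most used J segment in every rsCBE sample, and in WT the leading J differed between samples. The J5 share was 27.8, 26.9, 53.9, 37.9 and 58.1% in WT replicates 1 to 5 and 53.5, 56.3, 50.8, 51.8 and 43.6% in rsCBE. WT replicates 3 and 5 lay as high as the rsCBE samples, and the groups overlapped. The means were 41.0% ± 14.5 (SD, n = 5) and 51.2% ± 4.75 (SD, n = 5). The difference of 10.2 percentage points was 27.5 points in batch 1 and −1.29 points in batch 2. It was 3.19 points with each clonotype counted once, 4.87 with part b alone, 6.74 without WT replicate 2 and 19.5 with the counts of each genotype summed. The J5 share of all other V segments rose by a similar 10.4 points from WT to rsCBE, by 14.3 in batch 1 and 7.84 in batch 2. WT replicate 4 rests on 11 J5 counts of 29, with a 95% Wilson interval of 22.7 to 56.0%.

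The shares of J1, J2 and J4 ranged widely among the WT samples. J1 took 31.8, 29.4, 10.8, 55.2 and 6.98% of the WT joins and 19.2, 17.7, 27.1, 22.6 and 35.3% of the rsCBE joins. J2 took 26.3, 24.8, 27.5, 6.90 and 32.6% in WT and 15.2, 15.8, 12.1, 17.3 and 10.3% in rsCBE. WT replicate 4 was high for J1 and low for J2, and the other 4 WT samples lay above every rsCBE sample for J2. J4 took 14.1, 18.9, 7.84, 0.0 and 2.33% in WT and 12.1, 10.3, 10.1, 8.33 and 10.9% in rsCBE. The J4 value of WT replicate 4 is 0 of 29 counts, and 3 counts, taken as the limit that a count of 0 allows, would be 10.3%.

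Compared with all other V segments of the same sample, IGKV11-125 was joined to J5 more often. The J5 levels of both genotypes entered the choice of the segment and the J shares of a sample sum to 100%, so all comparisons of J use are descriptions with no p. The other V segments used J5 for 23.8, 25.9, 28.1, 34.8 and 30.2% of their joins in WT and for 38.3, 40.1, 39.4, 37.6 and 39.7% in rsCBE. IGKV11-125 lay above them in 10 of 10 samples, by 12.3 ± 9.47 percentage points (SD, n = 10). In WT alone the difference was 12.4 points, from 4.02, 1.05, 25.8, 3.09 and 28.0 in replicates 1 to 5. The large values came from WT replicates 3 and 5, with 102 and 43 counts of IGKV11-125. In WT replicate 3, 1 clonotype held 67.3% of the J5 counts. In WT replicates 1, 2 and 4 and rsCBE replicate 5, the other V segments lay inside the Wilson interval of IGKV11-125. In the remaining samples they lay below it. Over the 10 samples the difference was 17.7 points when only V segments numbered 91 and above after the hyphen served as the comparison. With each clonotype counted once the difference over the 10 samples was 8.09 points.

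J4 was used less often by IGKV11-125 than by the other V segments, by −6.05 ± 4.67 percentage points (SD, n = 10). It was below them in 9 of 10 samples, WT replicate 2 being the exception. In WT alone it was −7.06 points, and with each clonotype counted once −4.92 points over the 10 samples. J1 and J2 differed by −2.23 ± 15.3 and −3.97 ± 7.59 points (SD, n = 10), within their spread over samples. For J2 the mean difference was −0.836 points in WT and −7.10 in rsCBE, where it was below 0 in 5 of 5 samples. Averaged over the samples, IGKV11-125 used J1 for 25.6%, J2 for 18.9%, J4 for 9.48% and J5 for 46.1% of its joins. Its J5 share ranked 25 of 98 V segments from the top.

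**Figure D5:**
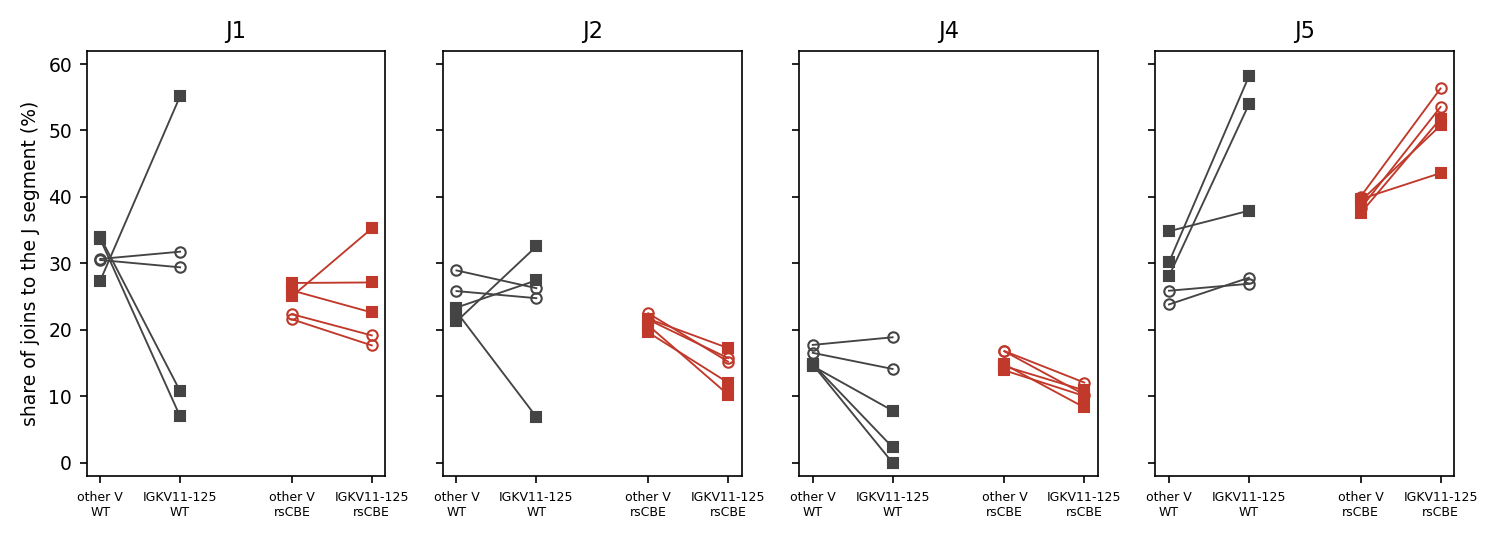
Share of joins to J1, J2, J4 and J5 (y axis, %), with a line for each sample from all other V segments to IGKV11-125, WT in grey and rsCBE in red (open circles, samples given as 1 library; filled squares, samples given as 2 parts). All 10 lines rise in the J5 panel, by 1.05 to 28.0 percentage points, and 9 of 10 fall in the J4 panel.

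Most IGKV11-125 transcripts were in frame, that is, with a CDR3 length that is a multiple of 3 and no stop in it. The in-frame share was 67.5, 76.5, 66.7, 79.3 and 86.0% in WT and 79.5, 72.1, 49.7, 72.0 and 82.1% in rsCBE. The groups overlapped, with means of 75.2% ± 8.20 (SD, n = 5) and 71.1% ± 12.7 (SD, n = 5). rsCBE replicate 3 was lowest, and without it the difference of −4.10 points became 1.23. Within batches the difference was 3.84 points in batch 1 and −9.40 in batch 2. Against the other V segments of the same sample the in-frame share differed by 5.24 ± 11.0 points (SD, n = 10), above in 7 of 10, and did not pass (two-sided exact sign-flip permutation test, p = 0.166, and 0.249 by Benjamini-Hochberg adjustment over this, CDR3 length and counts per clonotype). This difference was 2.15 points with each clonotype counted once, 3.17 in batch 1, 6.63 in batch 2 and 3.49 to 7.38 with 1 sample left out.

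Out-of-frame transcripts, which encode no light chain, were looked at apart. Their J5 share was 33.7, 19.7, 17.6, 33.3 and 16.7% in WT and 52.6, 56.4, 53.0, 57.4 and 25.0% in rsCBE. The means were 24.2% ± 8.57 (SD, n = 5) and 48.9% ± 13.5 (SD, n = 5), and rsCBE replicate 5, with 7 of 28 counts, lay inside the WT range. WT replicates 4 and 5 had 6 out-of-frame counts each. Among in-frame transcripts the J5 share was 25.0, 29.1, 72.1, 39.1 and 64.9% in WT and 53.8, 56.3, 48.5, 49.6 and 47.7% in rsCBE, with means of 46.0% ± 21.3 (SD, n = 5) and 51.2% ± 3.71 (SD, n = 5). The J5 share of out-of-frame joins minus that of in-frame joins was −12.0 ± 22.7 points (SD, n = 10), within its spread over samples. It was −21.8 in WT and −2.28 in rsCBE, −0.448 in batch 1 and −19.8 in batch 2, and −7.34 without WT replicate 3.

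CDR3 lengths ran from 17 to 36 nucleotides. Junctions of 27 nucleotides held 65.2% ± 11.2 of the counts (SD, n = 10), against 52.4% ± 4.98 for the other V segments. They held less than in the other V segments in WT replicate 1 (58.4 against 62.8%) and rsCBE replicate 3 (43.7 against 47.9%). The mean length exceeded that of the other V segments by 0.185 ± 0.221 nucleotides, in 9 of 10 samples (exact sign-flip permutation test, n = 10, p = 0.0273, adjusted p = 0.0820).

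The number of distinct clonotypes differed less than the counts. There were 82, 103, 26, 11 and 14 in WT replicates 1 to 5 and 99, 104, 43, 35 and 31 in rsCBE. As a share of all clonotypes of a sample IGKV11-125 made up 1.18% ± 0.396 over the WT samples and 1.22% ± 0.245 over the rsCBE samples (SD, n = 5 each). At an equal depth of 29 counts the expected number of clonotypes averaged 14.3 ± 3.46 for WT and 16.1 ± 1.73 for rsCBE samples (SD, n = 5), with overlap. The means were 17.9 and 16.6 in batch 1 and 11.8 and 15.8 in batch 2, so the direction differed between the batches.

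A clonotype carried more counts on average in rsCBE. There were 3.11, 3.14, 3.92, 2.64 and 3.07 counts per clonotype in WT and 3.85, 4.03, 4.63, 4.80 and 5.03 in rsCBE, and WT replicate 3 lay above rsCBE replicate 1. The means were 3.18 ± 0.465 and 4.47 ± 0.508 (SD, n = 5), while the other V segments had 4.01 ± 0.607 and 3.91 ± 0.584. For J5 joins alone the values were 3.39 ± 1.01 and 5.44 ± 0.869 counts per clonotype, from 5 to 27 J5 clonotypes per WT sample and 13 to 42 per rsCBE sample. The rsCBE mean was 1.79 times the WT mean in batch 1 and 1.49 times in batch 2. For the other J segments the means were 3.05 and 3.89, with 3.06 and 2.86 in batch 1 and 3.04 and 4.58 in batch 2. Against the other V segments of the same sample, the counts per clonotype of IGKV11-125 differed by −0.136 ± 0.853 (SD, n = 10) and did not pass (exact sign-flip permutation test, adjusted p = 0.604). The difference was −0.832 in WT and 0.559 in rsCBE, and ran from −0.278 without rsCBE replicate 5 to −0.0218 without WT replicate 4. Many clonotypes rest on 1 count. Of the 548 clonotypes summed over samples, 326 (59.5%) had 1 count, and 141 (25.7%, holding 14.0% of counts) differed by 1 substitution from a larger one of the same sample and J. Whether these are separate joins was not tested.

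IGKV11-125 also differed between the batches. Its share averaged 1.50% ± 0.283 (SD, n = 4) in samples given as 1 library and 0.958% ± 0.316 (SD, n = 6) in samples given as 2 parts. With genotype in the model the log2 fold change was −0.70 ± 0.19 (SE), with an adjusted p of 0.00407 in edgeR's quasi-likelihood test. V use as a whole differed between the batches, with 57 of 100 V segments called (57.0%), 31 of them higher in batch 2 (31.0%) and 26 lower (26.0%). Each batch held both genotypes. The genotype ratio of the IGKV11-125 share lay in the same direction in both, with means of 1.32 and 1.69% in batch 1 and of 0.713 and 1.20% in batch 2 for WT and rsCBE.

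The nearest relatives of IGKV11-125 in sequence are pseudogenes. Over its last 226 bases it matched IGKV11-106 at 92.0%, IGKV11-114 at 90.3% and IGKV11-118 at 87.6%, and the closest functional gene was IGKV14-111 at 82.3%. Of these pseudogenes IGKV11-106 was listed, with 333 counts, 44.7% of them with J5 and 45.9% in frame. Of the 323 CDR3s of IGKV11-125, 2 were also listed with another V segment, and these held 2 counts. How reads that match several V segments were assigned is not stated, which leaves single members of a family uncertain.

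Neighbours on the chromosome did not share a single pattern. On the near side, the mean shares of IGKV1-122, IGKV9-123 and IGKV9-124 were 0.968, 0.124 and 0.0846% of all counts. On the far side, those of IGKV14-126, IGKV17-127 and the pseudogene IGKV9-128 were 1.33, 2.31 and 0.0730%. Their log2 fold changes between the genotypes were 0.14, −0.31 and 0.31 on the near side and −0.47, 0.18 and 0.04 on the far side, none called. Among the 15 tested segments whose numbers run from 8 below to 10 above its own, IGKV11-125 included, 8 lay above 0 and 0 were called between the genotypes in the fit without batch or block (IGKV1-132 was called with either), with a median log2 fold change of 0.04 against −0.05 for all V segments. Between the batches, 4 of the 15 were higher in batch 2 (31.0% of all tested) and 6 lower, again with IGKV11-125 (26.0% of all tested), with a median of −0.54 against −0.05 for all.

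The V segments whose share went most closely with that of IGKV11-125 over the 10 samples were IGKV1-132, IGKV14-111 and IGKV4-92, with Pearson's r of log2 shares of 0.84, 0.77 and 0.75. With the batch means removed, r was 0.84, 0.59 and 0.68. IGKV8-18 and IGKV4-51, named here after their values were seen, then lay higher, at 0.90 and 0.88, against −0.16 and 0.59 before. These points share their libraries, depth, batch and genotype, and the values are a description. Genotype means were not removed, and IGKV1-132 had the highest log2 fold change between the genotypes of the V segments tested (1.27). IGKV1-132 had a mean share of 0.162% in WT and 0.409% in rsCBE. In J use the nearest were the pseudogenes IGKV4-56 and IGKV11-106 and the gene IGKV14-130, whose mean J1, J2, J4 and J5 shares lay within 8.49, 8.75 and 9.83 percentage points of those of IGKV11-125 in sum. They used J5 for 49.5, 42.2 and 43.6% of their joins.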

How the data were processed

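Igk transcripts of 10 samples, 5 WT and 5 rsCBE, were read. Per the file headers, the authors deposited for each library the V and J calls, the CDR3 and a count of whole numbers, with no normalization. The submitters' processing notes name the genome build mm10. The program that called V and J, its germline set, read filters and the unit that 1 count stands for are not given in the sources used here.

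Libraries were assigned by sample title, parts a and b of a sample were added (2 parts in 6 samples), and 45 duplicate lines were merged. Positions and germline ends came from GENCODE M21 (GRCm38). V bases were matched from the start of the CDR3 and J bases from its end. V segments and V-J pairs were fitted with edgeR 4.0.16 (R 4.3.3, quasi-likelihood F-test, filterByExpr, library size the total count, normalization factors of 1), with DESeq2 1.42.0 as an alternative and the Benjamini-Hochberg threshold at 0.05. The edgeR step was tested on simulated data. Values within samples were compared by two-sided exact sign-flip permutation tests written in Python 3.11.15, of which 8 were planned. The 5 on J use rest on values that chose the segment and are given without p, and the other 3 were adjusted as a family. Intervals are 95% Wilson intervals from SciPy 1.17.1.

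IGKV11-125 and the lists were chosen with earlier results of these data known. Other named segments are the remaining IGKV11 segments, the 3 tested on each side in number, and the 3 nearest each by share (log2 of count plus 0.5 over total plus 1) and by J use. Named CDR3s are those found in the most samples, ties by count.

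Samples with the same replicate number deviated together from their group means over 98 V segments (r = 0.80, 0.80, 0.60, 0.12 and 0.41 for replicates 1 to 5), so the numbers were tried as a pairing in an alternative fit. This pairing comes from the data, and same-numbered samples share a batch. With batch means removed, r was 0.15, −0.23 and −0.10 for replicates 3 to 5, and samples with different numbers ran from −0.22 to 0.30. Beyond the shared batch these values do not show a pairing. Alternatives covered scaling, filters, batch, block, parts, single counts, each clonotype counted once, and each replicate left out.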

Additional observations from a re-analysis of the deposited data

Results flagged for a closer look

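In 28 groups of 5 samples checked for a sample far from the others, 2 stood out, and chance flags about 1 in 20, or 1.4 here. Both were rsCBE replicate 5. Its mean CDR3 length was 26.9 nucleotides (26.9359), while the other 4 rsCBE samples lay between 26.7 and 26.8. Its out-of-frame joins used J5 in 25.0% (7 of 28 counts), while those of the other 4 lay between 52.6 and 57.4%.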

How the results depend on the processing

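Over 13 results, 110 of 115 alternatives and 127 of 130 values with a sample left out kept direction. For the 4 results with a test (in-frame share, CDR3 length and counts per clonotype against other V segments, and the share between batches), 30 of 32 alternatives and 39 of 40 values with a sample left out kept direction and side of the threshold. The J5 excess over other V segments was positive throughout (10.6 to 13.5 percentage points with 1 sample left out). It was 12.4 in WT alone, with 4.02, 1.05, 25.8, 3.09 and 28.0 in replicates 1 to 5. The excess was 12.2 in rsCBE, 9.15 in batch 1, 14.4 in batch 2, 10.7 in part a alone and 8.09 with each clonotype counted once. The J4 deficit (−6.85 to −5.08 with 1 sample left out) was −7.06 in WT, −5.04 in rsCBE, −3.13 in batch 1, −8.00 in batch 2 and −4.92 with each clonotype counted once. The J1 difference turned positive with each clonotype counted once (1.90) and ranged from −5.56 to 0.493 with 1 sample left out, above 0 without WT replicate 3 (0.103) or 5. The J2 difference ranged from −5.66 to −2.65. Without WT replicate 5 the CDR3 length difference passed (0.242 nucleotides, range 0.144 to 0.242). With each clonotype counted once it was 0.112 nucleotides. Counts per clonotype against other V segments turned positive in rsCBE (0.559) and in batch 1 (0.0241).

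For the genotypes, the log2 fold change of the share was 0.035 with each clonotype counted once. That of the J5 pair was 1.37 in batch 1 and 0.37 with each clonotype counted once. The J5 share difference was 27.5 points in batch 1 and −1.29 in batch 2 (6.74 to 14.5 with 1 sample left out). The in-frame difference was 3.84 in batch 1, −9.42 with each clonotype counted once, −0.706 with counts summed, and −6.84 to 1.23 with 1 sample left out. The cause was not tested. With the replicate block these values were 0.61, 1.04, 10.2 and −4.10. The block gave 1 call among 98 V segments (1.02%) and 0 of 270 pairs, against 0 and 0 without it, and changed no other call. A batch term gave 2 V segments (2.04%) and 7 pairs (2.59%), and batch 1 alone gave 35 of 285 pairs. Shares of WT replicates 4 and 5 rest on 29 and 43 counts of IGKV11-125.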
